A study of Mus musculus with 22 samples.

Results

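The genes described here are 8 members of the YAP and TEAD transcription programme: Ctgf, Cyr61, Ankrd1, Amotl2, Axl, Lats2, Tead1 and Wwtr1. They were taken by symbol from the 23993 gene symbols of a table of 16 mouse mammary libraries and the 23490 symbols of a second table of 6 libraries, and all 8 had a row in both. The levels are FPKM, that is, sequenced fragments scaled to transcript length and library size. Of the 8, Wwtr1 encodes TAZ, the paralogue of YAP, and Tead1 encodes one of the DNA-binding partners, so these belong to the machinery as much as to its targets.

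The Hippo pathway is a kinase cascade that restrains YAP and TAZ, a pair of related coactivators without a DNA-binding domain of their own. When the kinases LATS1 and LATS2 phosphorylate them they are held in the cytoplasm or degraded. Otherwise they enter the nucleus and bind TEAD factors at their target genes. Stretch, a stiff matrix, spreading of cells and low density are known to favour nuclear YAP and TAZ in epithelial cells, and the mammary epithelium is one of the tissues in which this was studied. Much of this control acts on the proteins, which RNA levels do not show.

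The study set 2 ways of growing mouse mammary cells side by side: conditional reprogramming (CRC), a method that commonly relies on feeder fibroblasts and a ROCK inhibitor, and EpiC, the condition that the series title calls mammary-optimized. All cells came from nulliparous C57Bl/6 females with 1 mutant Trp53 allele and an MMTV-Cre transgene. Genotypes were Tet-op-CYP19A1 with MMTV-rtTA (CYP19A1, an inducible aromatase), Brca1fl11/WT (Brca1het) and Brca1fl11/fl11 (Brca1hom). The MMTV promoter, which drives Cre and rtTA, is active mainly in mammary epithelium, and ages are not given. In the first table, 10 allografts had been grown in mammary glands of nude NU (NCr)-Foxn1nu hosts, which lack a working thymus but keep macrophages, vessels and fibroblasts. CRC allografts were 6C (CYP19A1), 10B, 10C and 11C (Brca1het) and 1, 2 and 12 (Brca1hom), and EpiC allografts were 7B (CYP19A1), 4C and 5A (Brca1het). Each medium had 3 cultures, of which culture 1 was CYP19A1, culture 2 Brca1het and culture 3 Brca1hom. In the second table, a CRC culture, an EpiC culture and the primary cancer itself were sequenced for each of 2 Brca1het cancers, whose titles share a number, so that they may be tumours of 1 animal. The titles of CRC allografts 10B and 10C share a number too, so they may come from 1 host. They entered the tests as separate samples. Nothing else in the labels ties libraries to individual animals or separate cultures. The p-values therefore reflect no more than the variation among these samples, some of which may be technical.

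Summed over all genes, FPKM lay between 466400 (EpiC allograft 4C) and 825200 (EpiC allograft 5A) in the first table. In the second it lay between 607500 and 710500, apart from the CRC culture of cancer 2, which reached 1616000. The 6 epithelial markers Krt5, Krt14, Krt8, Krt18, Epcam and Cdh1 summed to 43.6 to 570.4 FPKM in CRC allografts, 197 to 894 in EpiC allografts, 9583 to 15140 in CRC cultures and 4.01 to 1505 in EpiC cultures. The lowest EpiC sum belonged to EpiC culture 3, so in that library the labelled epithelium was nearly without these markers. In bulk RNA, fewer cells of a type and less RNA per cell cannot be told apart.

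TEAD factors are known to bind the bases GGAATG, read as CATTCC on the other strand. RefSeq promoters on build GRCm38.p6, from 250 bases before to 50 after the gene start, were at hand for 6 members, and at least 1 of these promoters of each held the motif on one strand or the other. Of all 32851 promoters of 300 bases, 14.7% held it. A match is a description of the letters and shows no binding. The promoters of Ankrd1, which held 2 matches, and of Cyr61 and Amotl2, the members whose levels were called different below, are shown 5′ to 3′ with the motif in capitals. They lie at chr19:36119795-36120094, chr3:145649936-145650235 (both on the minus strand) and chr9:102717554-102717853 (plus strand).
Ankrd1: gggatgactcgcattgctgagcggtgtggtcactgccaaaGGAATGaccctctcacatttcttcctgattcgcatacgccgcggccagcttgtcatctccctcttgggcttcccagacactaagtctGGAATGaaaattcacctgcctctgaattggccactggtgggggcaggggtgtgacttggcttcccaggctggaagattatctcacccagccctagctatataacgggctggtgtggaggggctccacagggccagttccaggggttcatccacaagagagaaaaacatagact
Cyr61: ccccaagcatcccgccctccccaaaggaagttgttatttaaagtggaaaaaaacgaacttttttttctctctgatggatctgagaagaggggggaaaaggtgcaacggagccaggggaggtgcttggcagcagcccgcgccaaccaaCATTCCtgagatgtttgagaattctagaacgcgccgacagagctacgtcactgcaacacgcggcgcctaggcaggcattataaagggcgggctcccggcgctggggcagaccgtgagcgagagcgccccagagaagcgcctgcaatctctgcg
Amotl2: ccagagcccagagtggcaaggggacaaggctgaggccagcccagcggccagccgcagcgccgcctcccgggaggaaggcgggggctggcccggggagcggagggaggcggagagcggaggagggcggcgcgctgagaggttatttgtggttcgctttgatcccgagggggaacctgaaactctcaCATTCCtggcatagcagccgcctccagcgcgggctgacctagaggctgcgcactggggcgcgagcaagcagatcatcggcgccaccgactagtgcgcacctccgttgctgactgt
In Ankrd1 the matches began 210 and 123 bases before the gene start, in Cyr61 103 and in Amotl2 65 bases before it. The other 3 members with a promoter held 1 match each, for Lats2 at only 1 of its 2 annotated starts and for Wwtr1 in the overlap of its 2 windows. The promoter of Yap1 also held 1.

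Over the 16 allografts and cultures the members differed widely in how much they varied. Ankrd1, which encodes an ankyrin repeat protein first studied in heart muscle, spanned 1.55 to 109 FPKM, a 70.5-fold range. Axl, which encodes a receptor tyrosine kinase, spanned only 132 to 253.5 FPKM, a 1.92-fold range. Between these lay the secreted matricellular genes Cyr61 (47.9 to 1124 FPKM) and Ctgf (16.8 to 242). Amotl2, which encodes an angiomotin-like scaffold that binds and restrains YAP, spanned 3.67 to 71.7 FPKM. The least abundant member was Lats2, whose kinase acts against YAP and which is itself a YAP target, at 4.05 to 17.3 FPKM. Tead1 lay between 5.498 and 25.9 and Wwtr1 between 29.2 and 121 FPKM.

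**Figure D1:**
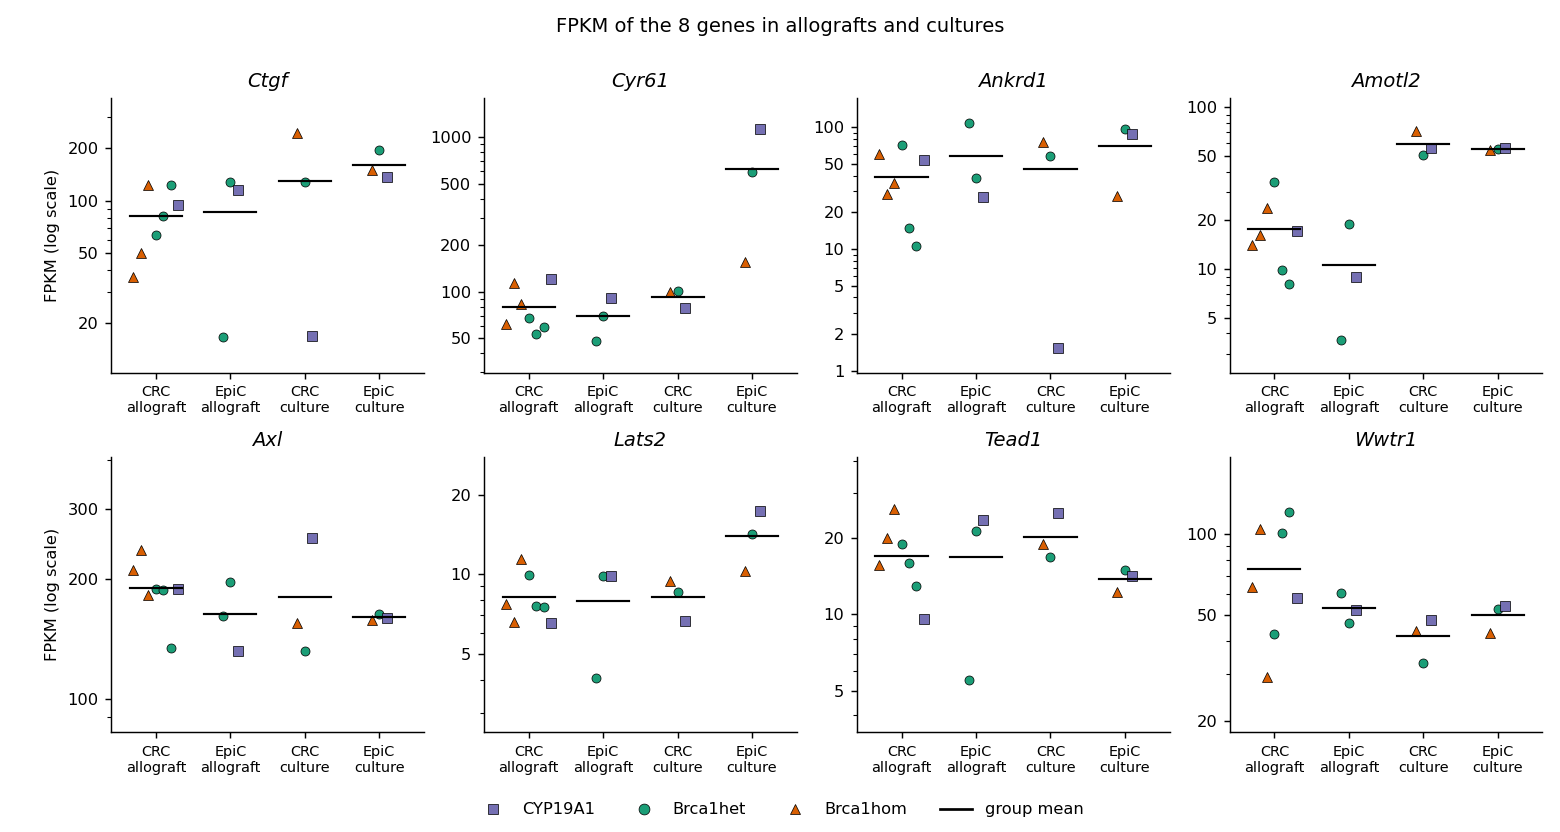
FPKM (log axis) of the 8 genes in 7 CRC allografts, 3 EpiC allografts, 3 CRC cultures and 3 EpiC cultures; each point is a library, its shape and colour give the genotype, and the line is the group mean. Amotl2 is lower in every allograft than in every culture, and Cyr61 is highest in the 3 EpiC cultures.

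Between the media in culture, no member was called different, although Cyr61 was lower in all 3 CRC cultures. Differences were tested with limma on log2(FPKM + 1) with genotype in the model, and a gene counts as called where its p, adjusted by Benjamini-Hochberg over all tested genes, is under 0.05. Among all 11837 genes 23.2% were called, against 0 of the 8 members, of which 1 had an unadjusted p under 0.05. The count over all genes rested on few libraries: it was 2741 with every culture, but 159 or 168 when the Brca1het culture of CRC or of EpiC was left out, and 565 or 671 when the CYP19A1 culture of CRC or of EpiC was. Cyr61 stood at 77.9, 101 and 99.0 FPKM in CRC cultures 1, 2 and 3, against 1124, 597.5 and 155 FPKM in EpiC cultures 1, 2 and 3. The groups did not overlap, and the EpiC cultures differed more among themselves than the CRC cultures did. The log2 difference was −2.34 (SE 0.64, limma adjusted p = 0.0625). It was called without genotype in the model (limma adjusted p = 0.0417). With genotype in the model, leaving out either culture of a genotype takes that genotype out of the comparison. Without CRC or EpiC culture 3, cultures 1 and 2 alone thus gave −3.19. The media lay closest in cultures 3 (99.0 and 155 FPKM), so leaving them out can only enlarge the difference, and no p is given.

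Lats2 and Tead1 were the other members whose cultures did not overlap, which was so of 3 of 8 members and of 50.4% of all tested genes. Lats2 stood at 6.68, 8.58 and 9.42 FPKM in CRC cultures 1, 2 and 3, against 17.3, 14.2 and 10.3 in the EpiC cultures with the same numbers (log2 −0.68, SE 0.27, limma adjusted p = 0.128). Tead1 ran the other way, with 25.0, 16.8 and 18.9 FPKM in CRC cultures, against 14.1, 14.9 and 12.3 in EpiC cultures (log2 0.51, SE 0.19, limma adjusted p = 0.119). Both differences missed the threshold.

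Ctgf and Ankrd1 were both lowest in the same CRC culture. Ctgf stood at 16.9 FPKM in CRC culture 1 and at 128 and 242 in CRC cultures 2 and 3, against 136, 193 and 149 in EpiC cultures 1, 2 and 3. Ankrd1 stood at 1.55 FPKM in CRC culture 1 and at 58.0 and 75.7 in CRC cultures 2 and 3, against 87.8, 95.9 and 27.2 in EpiC cultures. Among CRC cultures the CYP19A1 library was thus far below the others for both genes, whereas in EpiC it was the lowest by a small margin for Ctgf and the middle one for Ankrd1. Leaving out that library also takes EpiC culture 1 out of the comparison, since genotype is in the model. Cultures 2 and 3 then gave a log2 difference of 0.05 for Ctgf and 0.36 for Ankrd1. With all cultures it was −0.94 (SE 0.72, limma adjusted p = 0.367) and −1.46 (SE 1.30, adjusted p = 0.43). In CRC culture 1 Axl had its highest level, 253.5 FPKM, against 132 and 155 in CRC cultures 2 and 3 and 158 to 163.5 in EpiC cultures. Amotl2 and Wwtr1 were close between media, at 59.5 ± 11.0 and 41.5 ± 7.64 FPKM in CRC and 55.4 ± 0.510 and 49.9 ± 6.09 FPKM in EpiC cultures (SD, n = 3 each).

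Fibroblast markers moved with the medium as well. The 10 markers summed to 37.3 to 65.0 FPKM in CRC cultures and 4053 to 6455 in EpiC cultures, with 8 of 9 tested markers called lower in CRC and none of the 10 at 0 in all libraries of a medium. EpiC culture 3, the lowest EpiC culture for every member but Ctgf, had an epithelial marker sum of 4.01 FPKM. EpiC cultures 2 and 1 had 1505 and 1476. The part of fibroblast and epithelial cells in the member values, including those of Cyr61 and Lats2, was not tested.

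Allografts held less Amotl2 than cultures in both media, and less Cyr61 for EpiC. CRC allografts and cultures, EpiC allografts and cultures, and the difference between these effects were compared in 1 limma model over the 16 libraries with genotype included. Of 12325 genes, 39.6% were called between CRC allografts and CRC cultures and 14.2% between EpiC allografts and EpiC cultures. Among the members 1 of 8 was called for CRC and 2 of 8 for EpiC, all of them lower in allografts, a direction called for 18.4% of all genes in CRC and 6.26% in EpiC.

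Amotl2 ranged from 8.07 FPKM in CRC allograft 10B over a median of 16.4 to 34.7 in CRC allograft 11C, against 56.4, 50.4 and 71.7 in CRC cultures 1, 2 and 3. In EpiC allografts 7B, 4C and 5A it stood at 8.999, 19.1 and 3.67 FPKM, against 55.7, 55.6 and 54.8 in EpiC cultures 1, 2 and 3. No allograft reached the lowest culture. The log2 difference was −1.82 for CRC (SE 0.44, limma adjusted p = 0.00487), which is 3.52-fold lower, and −2.44 for EpiC (SE 0.53, adjusted p = 0.00759), which is 5.42-fold lower. The difference between these effects was 0.62 (SE 0.69, adjusted p = 0.616).

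Cyr61 fell in EpiC allografts, to 91.2, 69.7 and 47.9 FPKM in 7B, 4C and 5A, against 1124, 597.5 and 155 FPKM in EpiC cultures 1, 2 and 3. That is a log2 difference of −2.83 (SE 0.51, limma adjusted p = 0.00211), or 7.09-fold lower on the log2(FPKM + 1) scale. In CRC allografts it ranged from 53.3 FPKM over a median of 67.7 to 120.1, against 77.9, 101 and 99.0 in CRC cultures 1, 2 and 3, with overlap (log2 −0.13, SE 0.42, adjusted p = 0.836). The allografts of both media therefore lay in 1 range, and the EpiC cultures alone stood above it. The effect differed between the media by 2.70 on the log2 scale (SE 0.66, limma adjusted p = 0.017), where 12.2% of all genes were called, 6.35% with a positive difference. This call was lost without EpiC culture 1 (2.12, adjusted p = 0.0677) or EpiC culture 2 (2.33, adjusted p = 0.0561).

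**Figure D2:**
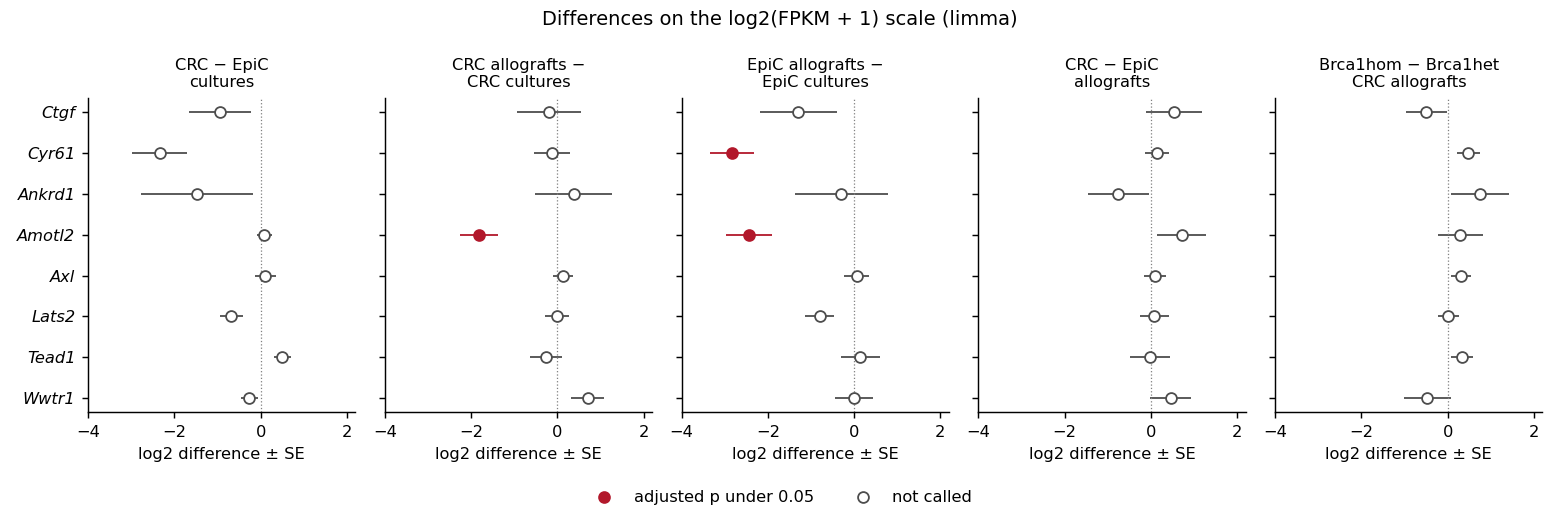
Log2 differences (points) with standard errors (bars) of the 8 genes in 5 limma comparisons of the allografts and cultures; the group named first in each title is on top of the difference. Filled points mark adjusted p under 0.05, which are Amotl2 in both allograft comparisons and Cyr61 in the EpiC one.

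The remaining members were not called between allografts and cultures. Ctgf stood at 115, 128 and 16.8 FPKM in EpiC allografts 7B, 4C and 5A, against 136, 193 and 149 in EpiC cultures (log2 −1.29, SE 0.89, limma adjusted p = 0.37). In CRC allografts Ctgf ranged from 36.5 over a median of 82.3 to 123 FPKM, inside the range of 16.9 to 242 of CRC cultures. Lats2 stood at 9.84, 9.82 and 4.05 FPKM in EpiC allografts 7B, 4C and 5A, against 17.3, 14.2 and 10.3 in EpiC cultures (log2 −0.80, SE 0.33, adjusted p = 0.13). In EpiC libraries 4 of 8 members did not overlap between allografts and cultures, against 28.6% of all genes, and in CRC libraries 1 of 8, against 41%.

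Wwtr1 ranged from 29.2 FPKM over a median of 63.4 to 121 in CRC allografts, against 48.0, 33.1 and 43.5 in CRC cultures 1, 2 and 3 (log2 0.70, SE 0.37, limma adjusted p = 0.154). The CRC allografts with the lowest Wwtr1 were 1 and 11C, and without allograft 1 the log2 difference was 0.88. Without both, an alternative chosen after the data were seen, the difference was 1.04. Leaving out the lowest libraries of the group can only raise the difference, so no p is given for either. In EpiC allografts Wwtr1 stood at 52.1, 46.6 and 60.3 FPKM, against 54.1, 52.7 and 42.9 in EpiC cultures.

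Macrophage and endothelial markers rose with the allografts of both media. The 10 macrophage markers summed to 3907 to 12740 FPKM in CRC allografts and 4078 to 12800 in EpiC allografts, against 11.1 to 55.4 in CRC and 7.47 to 18.7 in EpiC cultures, and all 10 were called higher in both media. Of 8 endothelial markers, which summed to at least 61.1 FPKM in every allograft and at most 4.66 in every culture, 8 were called higher for CRC and 7 for EpiC. Fibroblast markers summed to 1728 to 5377 FPKM in CRC allografts and 37.3 to 65.0 in CRC cultures, with all 10 called higher, but to 761 to 3888 in EpiC allografts and 4053 to 6455 in EpiC cultures, with 2 called lower. Of 6 epithelial markers, 4 were called lower in CRC allografts than in CRC cultures (median log2 −6.25) and 0 between EpiC allografts and EpiC cultures (median −0.96). None of these markers was at 0 in all libraries of a group. The part of these cells in the Amotl2, Cyr61 and Wwtr1 values was not tested.

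Among the allografts, neither the medium of origin nor the Brca1 genotype gave a called member. Between CRC and EpiC allografts, with genotype in the model, 0.00833% of 11999 genes were called (1 gene) and 0 of 8 members (limma adjusted p from 0.745 to 0.994). Brca1hom had CRC allografts only, so with genotype in the model the fitted differences rested on the CYP19A1 and Brca1het allografts. None of the 8 members had groups without overlap, against 2.38% of all genes. Without adjustment, 1011 genes and no member had a p under 0.05. Between Brca1hom and Brca1het CRC allografts limma called 0% of 11928 genes, with 1246 at an unadjusted p under 0.05 and no member among them (adjusted p 0.563 to 0.985), and 0 of 8 without overlap, against 19.4% of all genes. The smallest of these belonged to Cyr61, with 83.6, 114 and 61.2 FPKM in Brca1hom allografts 1, 2 and 12, against 58.9, 53.3 and 67.7 in Brca1het allografts 10B, 10C and 11C.

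EpiC allograft 5A held the lowest level among the 10 allografts of 5 members and the highest of another. It had the least Ctgf (16.8 FPKM), Cyr61 (47.9), Amotl2 (3.67), Lats2 (4.05) and Tead1 (5.498), and the most Ankrd1 (109 FPKM). For Ctgf the next lowest allograft, CRC 12, stood at 36.5 FPKM, and for Tead1 the next lowest, CRC 6C, at 9.57. Ctgf and Ankrd1, often read together as YAP targets, thus stood at opposite ends in this library. It also had the highest FPKM sum, the highest macrophage and epithelial marker sums (12800 and 894 FPKM) and the lowest fibroblast marker sum (761 FPKM) of the allografts, whose part in these values was not tested. Without 5A, the log2 medium difference in allografts was −0.44 for Ctgf (limma adjusted p = 0.651), and with it 0.54 (adjusted p = 0.847).

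CRC allografts 11C and 1 were singled out because their Yap1 level was high, so what follows is a description with no test. Yap1, which encodes YAP, stood at 1075 FPKM in CRC allograft 11C and 261 in CRC allograft 1, against 21.0 to 52.5 FPKM in the other 8 allografts (median 26.8). The 6 cultures lay between 39.3 and 66.7 FPKM. Allograft 11C was thus 20.5-fold and allograft 1 4.96-fold above the highest of the others, EpiC allograft 7B. The genotypes of the pair were Brca1het and Brca1hom, and other CRC allografts of both genotypes lay in the low range.

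Genes next to Yap1 on chromosome 9 were high in the same libraries. In the gene order of RefSeq GRCm38.p6, 9 of the 16 nearest genes, 8 on each side, had a row in the first table. Birc2 and Birc3, which encode inhibitors of apoptosis, stood at 203 and 226 FPKM in 11C and 90.5 and 81.4 in allograft 1, against at most 19.99 and 22.7 FPKM in the other 8. The gene on the other side, listed as 9230110C19Rik (now Cfap300), stood at 359 FPKM in 11C and 114 in allograft 1, against 2.88 to 28.7. Tmem123 stood at 1113 and 258.5 FPKM, against 29.6 to 102. These 4 neighbours and Yap1 had 11C first and allograft 1 second of the 10 allografts. The matrix protease gene Mmp7, farther out, stood at 4.02 FPKM in 11C and 0.164 in allograft 1, against at most 0.0822 in the other allografts. Trpc6 on the other side stood at 1.07 and 0.192, against 0.0515 to 1.15. Outside the allografts, Mmp7 reached 3.76 FPKM in CRC culture 3 and Trpc6 2.81 in EpiC culture 2. Of the other 3, 1700128F08Rik reached at most 0.123 FPKM in any allograft, and Mir5618 and Mir1899 were listed at 0 in all 10. The number of gene copies was not measured in these data.

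**Figure D3:**
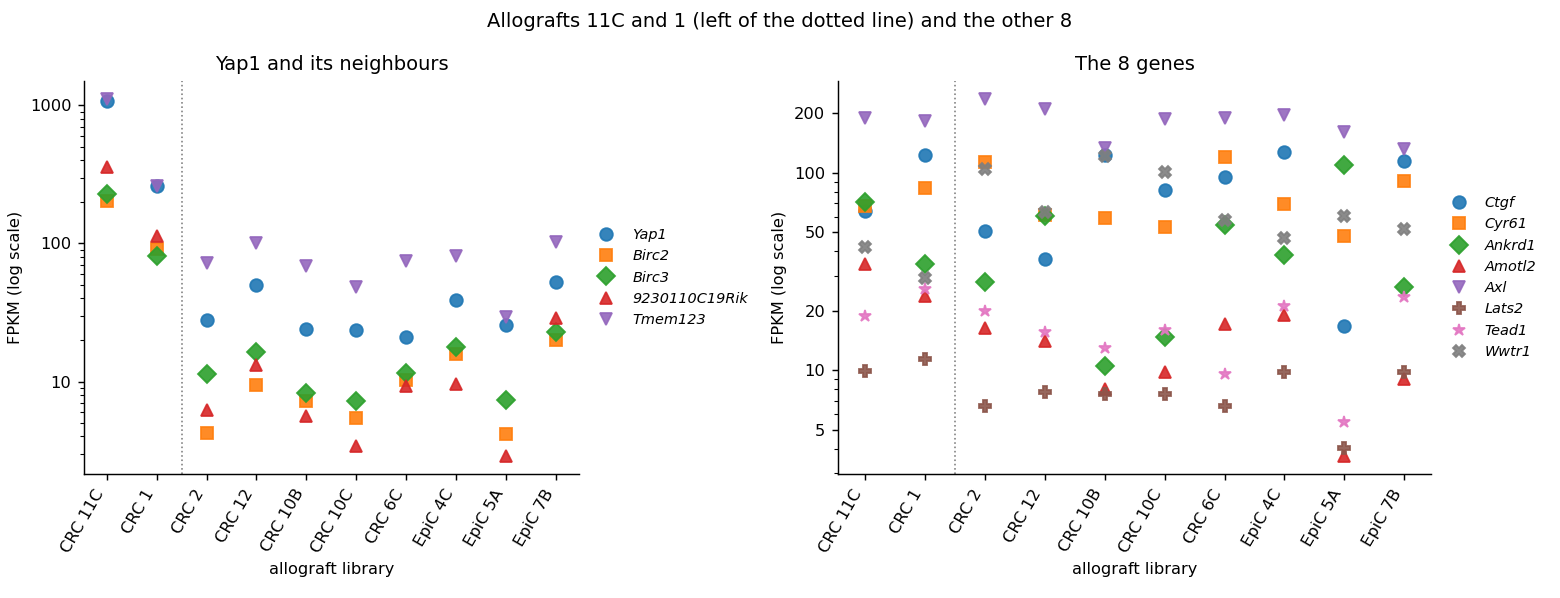
FPKM (log axis) in the 10 allografts, with CRC allografts 11C and 1 left of the dotted line; the left panel shows Yap1 and 4 neighbouring genes, the right panel the 8 genes. The 5 genes of the left panel are highest in 11C and next in 1, whereas on the right Amotl2 and Lats2 alone have these libraries as their top 2 and Wwtr1 has them as its lowest 2.

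The YAP targets did not follow Yap1 together in these libraries. Amotl2 stood at 34.7 FPKM in 11C and 23.8 in allograft 1, against 3.67 to 19.1 in the other 8 (median 11.9), and Lats2 at 9.90 and 11.5, against 4.05 to 9.84 (median 7.55). For both genes, whose proteins restrain YAP, the pair held the 2 highest levels, Lats2 in 11C by a small margin. Even so, Amotl2 stayed below every culture.

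The widely used targets Ctgf, Cyr61 and Ankrd1 lay inside the range of the other allografts. Ctgf stood at 63.9 FPKM in 11C and 123 in allograft 1, against 16.8 to 128. Cyr61 stood at 67.7 and 83.6 FPKM, against 47.9 to 120.1, and Ankrd1 at 71.1 and 34.5, against 10.6 to 109. Axl, at 189 and 182.5 FPKM, was close to the median of 188 in the others. Tead1 was highest of the 10 in allograft 1 (25.9 FPKM) and ranked 5 in 11C (18.9), with the other 8 between 5.498 and 23.5.

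Wwtr1 was the one member with the pair at the bottom, at 42.3 FPKM in 11C and 29.2 in allograft 1, against 46.6 to 121 in the other 8 (median 61.8). The ratio of Wwtr1 to Yap1 FPKM is not set out for this pair, since its denominator chose them. In the other 8 allografts it ran from 0.991 in EpiC allograft 7B to 5.03 in CRC allograft 10B and was above 1 in 7 of them. In the 6 cultures it ran from 0.608 to 1.22, and in the 6 libraries of the second table from 0.481 to 1.16.

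In the second table the members were tested among 2 CRC cultures, 2 EpiC cultures and 2 primary cancers in 1 model, and none was called. Of 12266 genes, limma called 0.889% between CRC cultures and cancers, 0.677% between EpiC cultures and cancers and 0.00815% (1 gene) between the media. Without adjustment, p was under 0.05 for 861, 834 and 200 genes, and for 0, 3 and 1 of the 8 members. The 3 comparisons share samples, since each group enters a pair of them. In all 6 libraries epithelial markers were abundant, with sums of 1703 to 9289 FPKM in CRC cultures, 1560 to 1861 in EpiC cultures and 1887 to 3527 in the cancers. Levels of this table are not set against those of the first, since how the libraries of either were scaled is not given.

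Axl was the member with the smallest p between EpiC cultures and cancers. It stood at 32.7 and 34.1 FPKM in the CRC cultures of cancers 1 and 2 and at 86.9 and 67.6 in their EpiC cultures, against 19.4 and 18.0 in the cancers. No group overlapped another. The log2 difference from the cancers was 0.81 for CRC (SE 0.46, limma adjusted p = 0.799) and 1.98 for EpiC (SE 0.46, adjusted p = 0.175).

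Cyr61 and Amotl2 were likewise higher in every culture than in either cancer. Cyr61 stood at 138 and 355 FPKM in the CRC cultures of cancers 1 and 2 and at 404 and 289 in their EpiC cultures, against 69.3 and 113 in the cancers. Amotl2 measured 24.7 and 18.1 FPKM in the CRC cultures and 23.8 and 26.6 in the EpiC cultures, against 9.14 and 11.5 in the cancers. In all, 3 of 8 members had no overlap between CRC cultures and cancers and 4 of 8 between EpiC cultures and cancers, against 29.4% and 38.7% of all genes. Fitted with the cancer as a block, which the letter and closing number in the titles allow, 0 members were called in each of the 3 comparisons, as without it. The genes called in all were then 58, 29 and 0, against 109, 83 and 1 without the block.

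Ankrd1 separated the cancers rather than the groups. Its level was 48.0 and 139.6 FPKM in CRC cultures of cancers 1 and 2 and at 212 and 138.5 in EpiC cultures, against 5.67 in cancer 1 and 432 in cancer 2. The difference between the cancers was thus far larger than that between their cultures. Ctgf measured 131 and 83.6 FPKM in the CRC and 206 and 144 in the EpiC cultures of cancers 1 and 2, against 233 in cancer 1 and 63.0 in cancer 2, so the cancers stood in the opposite order to that for Ankrd1. Lats2, Tead1 and Wwtr1 were lowest of the 6 libraries in the CRC culture of cancer 2, at 3.61, 3.19 and 19.7 FPKM. Yap1 was lowest there too (22.6 FPKM). That library had the highest FPKM sum (1616000) and the fewest genes at 1 FPKM or more (10658), whose bearing on these values was not tested. All 8 members had a lower fitted mean in CRC than in EpiC cultures of the cancers, with log2 differences from −1.17 for Axl to −0.24 for Amotl2 and a limma adjusted p of 1 for each. For Tead1, Wwtr1 and Cyr61 this direction rested on single libraries. Without the CRC culture of cancer 2 the difference was 0.009 for Tead1 and 0.17 for Wwtr1. Without the CRC culture of cancer 1 it was 0.056 for Cyr61. For Ctgf, Ankrd1, Axl, Amotl2 and Lats2 it stayed negative whichever library was left out, and came nearest to a change of sign for Amotl2 (−0.028). The median over the members was −0.74, against −0.08 over all genes. Macrophage markers summed to 9.07 to 13.0 FPKM in CRC and 14.2 to 36.7 in EpiC cultures, against 1015 to 1483 in the cancers, and fibroblast markers to 7.67 to 24.4 and 5.85 to 6.60, against 171 to 383.5. Their part in the Axl, Cyr61 and Amotl2 values was not tested.

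**Figure D4:**
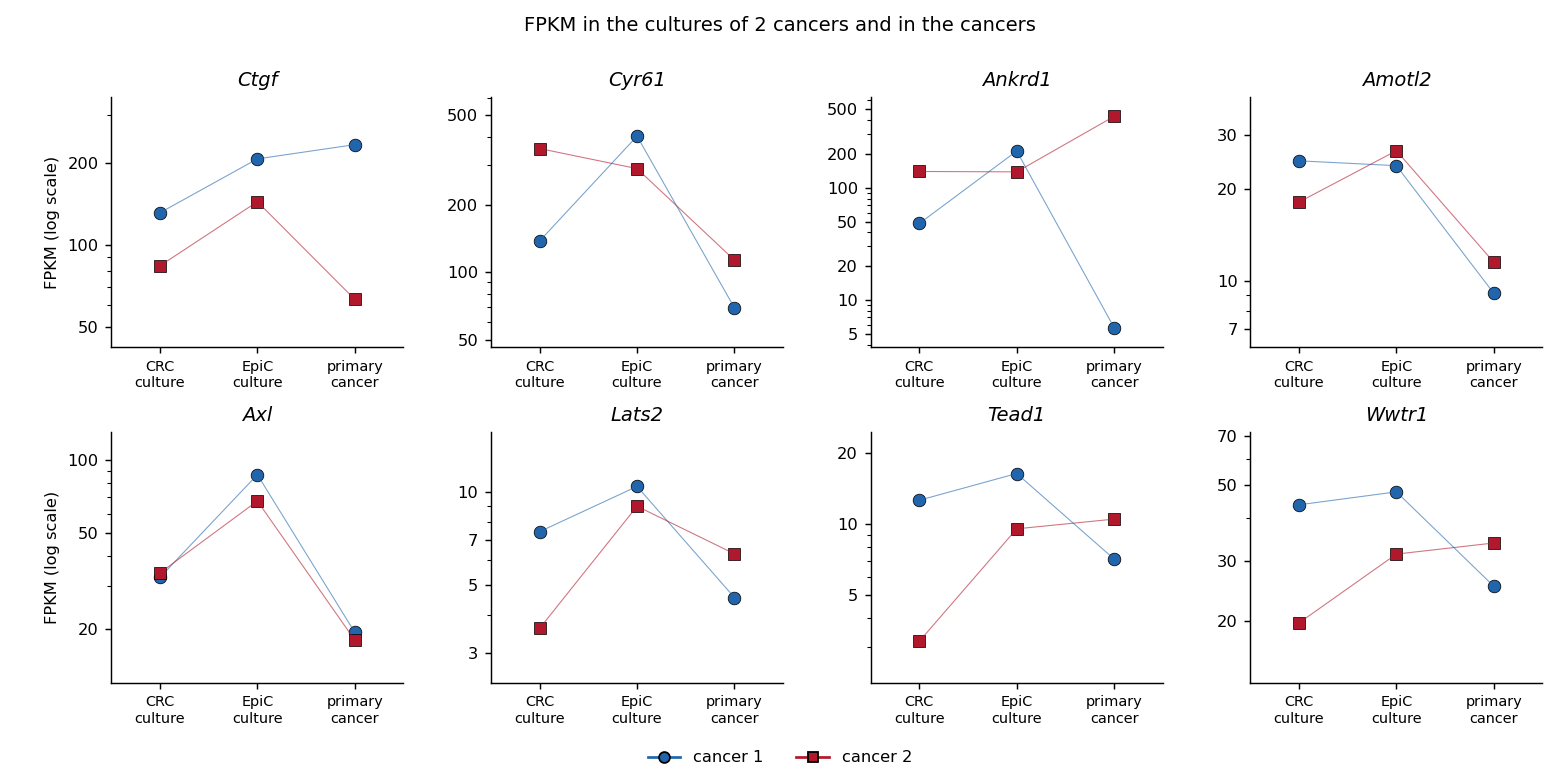
FPKM (log axis) of the 8 genes in the CRC culture, the EpiC culture and the tissue of each of 2 primary cancers; lines join libraries of the same cancer. Axl, Cyr61 and Amotl2 are lowest in the 2 cancers, and Ankrd1 ranges from 5.67 in cancer 1 to 432 in cancer 2.

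Other genes of the pathway moved in several directions. Of 28 genes of the Hippo machinery, 26 passed the filter in cultures and 4 were called, all higher in CRC (median log2 0.38, against 0.04 over all genes). That is a smaller share than the 23.2% called over all genes. The 4 genes were Tead4, a TEAD factor (8.18 ± 0.476 FPKM in CRC and 1.72 ± 1.41 in EpiC cultures), Ptpn14, a phosphatase that binds YAP (12.5 ± 1.93 and 3.64 ± 0.595), the Hippo kinase gene Stk4 (19.1 ± 2.15 and 8.21 ± 0.976) and Mob1a, a cofactor of the LATS kinases (47.5 ± 8.89 and 27.4 ± 6.44; SD, n = 3 each). Yap1 was not called (48.2 ± 7.91 in CRC and 55.4 ± 9.85 in EpiC cultures, limma adjusted p = 0.433).

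Of the 15 further YAP and TAZ targets, all tested, 2 were called higher and 4 lower in CRC cultures (median log2 −0.43), beside 23.2% called over all genes. Myof, a membrane repair gene, averaged 118 ± 8.84 FPKM in CRC cultures and 57.3 ± 15.7 in EpiC cultures, and the kinase gene Nuak2 at 16.3 ± 4.07 and 6.19 ± 2.61. In the opposite direction, the matrix gene Ccdc80 stood at 0.588 ± 0.210 and 53.9 ± 18.7 FPKM and the stress gene Gadd45a at 20.8 ± 11.1 and 69.1 ± 5.38 (SD, n = 3 each).

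Between CRC allografts and CRC cultures, 4 of 28 machinery genes were called higher and 8 lower (median log2 −0.39, against 0.04 over all genes), a share near the 39.6% called over all genes. The cadherin gene Dchs1, whose protein acts upstream of Hippo, averaged 5.32 ± 2.90 FPKM in the 7 allografts and 0.0482 ± 0.0394 in the 3 cultures (SD), and Tead2 at 42.6 ± 11.6 and 20.5 ± 2.43. Wwc1 (KIBRA, an activator of LATS) stood at 2.15 ± 0.927 and 16.9 ± 2.75, Tjp1, a tight junction gene, at 12.1 ± 8.97 and 43.6 ± 3.40, and Tead4 at 2.06 ± 0.885 and 8.18 ± 0.476. Of the 15 further targets 3 were called higher and 3 lower, again near that share, with F3 (tissue factor) at 8.39 ± 2.65 and 36.8 ± 6.78 FPKM and Igfbp3 at 154 ± 63.3 and 36.3 ± 20.2.

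Between EpiC allografts and EpiC cultures, 1 of 28 machinery genes was called higher and 3 lower, a share near the 14.2% called over all genes, and 4 of 15 further targets were called lower and 0 higher. Tead3 averaged 2.397 ± 0.299 FPKM in the allografts and 12.8 ± 1.57 in the cultures, the kinase gene Map4k4 at 70.5 ± 3.30 and 37.8 ± 5.29, F3 at 8.47 ± 5.21 and 51.2 ± 16.1 and Crim1 at 6.13 ± 3.14 and 17.9 ± 2.10 (SD, n = 3 each). F3 and Crim1, like Amotl2, were called lower in the allografts of both media. In the second table and between groups of allografts, no gene of either list was called. Cell type markers also differed between the media in culture and between allografts and cultures, as given above. Their part in the levels of the genes of both lists was not tested.

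The genes whose pattern over the 16 libraries was most like that of a member mostly lay outside these lists. They are given by Pearson correlation of log2(FPKM + 1) over the 16 libraries, which share the contrast of cultures and allografts, as a description. For Amotl2 they were Ube2h (0.916), Gadd45b (0.907) and the YAP target Crim1 (0.905). For Cyr61 they were Fndc3a (0.927), Tnfaip3 (0.904) and Tsc22d2 (0.904), and for Ctgf Adamts1 (0.839), Kat2b (0.824) and Adnp (0.789). Ankrd1 had its closest pattern in Ptprj (0.742) and Axl in Map4k1 (0.708). Lats2 was most like Xk (0.871), Tead1 most like Plekha5 (0.92) and Wwtr1 most like Tfpi2 (0.891). No member was among the 3 closest genes of another.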

How the data were processed

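Poly(A) RNA of 22 mouse mammary libraries was sequenced with paired-end Illumina reads and TruSeq libraries, per the labels' protocols. The deposited values are FPKM, per the labels' descriptions, which name the 2 tables; FastQC, Trim Galore, TopHat and Cufflinks and the build mm9 are named, without versions, in the submitters' processing notes. The annotation, any filter and how libraries were scaled: not given in the sources used here. Entries that shared a symbol (407 of 23735 in the second table, no member among them) were summed. More than 6 digits were printed for 51.5% of that table's values above 0, of which 97.2% had 5 as the last digit, as averages of pairs of 6-digit values would. Read depth cannot be taken from FPKM. Ratios of low values put the worth of 1 fragment at 0.973 to 4.41 times that in CRC allograft 10C in the first table, and at 0.529 to 1.01 times that in primary cancer 1 in the second, but the modal bin never held more than 29% of the genes, which makes these ratios rough. No pair of libraries was identical (highest correlation across genes 0.991).

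Groups came from the titles. limma 3.58.1 (R 4.3.3; lmFit, eBayes with trend) was run on log2(FPKM + 1) for genes that averaged 1 FPKM or more across a fit's libraries, and the script was tested on simulated data. All 8 members passed this filter in every fit. Fold changes on this scale understate low genes. Means are of FPKM and do not adjust for genotype. The members and lists were chosen with earlier results of these data known. Genes named are the members, Yap1, its neighbours, up to 6 called genes of each list in a comparison and the 3 genes most like each member. Libraries of 1 cancer share a letter (C or D) and a closing number in their titles, which pair them. Their deviations from the group means correlated across genes at −0.06 (cancers and CRC cultures), −0.11 (cancers and EpiC cultures) and 0.24 (both cultures). Results were recomputed with a pseudocount of 0.1, without a filter, with a filter at 5 FPKM, with median-ratio rescaling, without genotype, with CRC allografts 10B and 10C averaged, in Brca1het allografts alone, with the cancer as a block and without each library in turn. Leaving out both CRC allografts 1 and 11C was added after seeing the data.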

Additional observations from a re-analysis of the deposited data

Results flagged for a closer look

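In the 7 CRC allografts, none of the 8 members held a library far from the others by Dixon's criterion. Yap1 was not tested in this way, since its level chose CRC allografts 11C and 1. The effect of allografting on Cyr61 differed between CRC and EpiC by 2.70 on the log2 scale (SE 0.66, limma adjusted p = 0.017): allografts stood at 79.8 ± 27.1 FPKM and cultures at 92.6 ± 12.7 for CRC (SD, n = 7 and 3), and at 69.6 ± 21.7 and 626 ± 485 for EpiC (n = 3 each). The call was lost without EpiC culture 1 (limma adjusted p = 0.0677) or EpiC culture 2 (limma adjusted p = 0.0561).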

How the results depend on the processing

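Of 1278 values of members and Yap1 recomputed under the alternatives, 1177 kept their direction and their side of the threshold, 7 crossed the threshold and 94 changed sign, none of those past it in the original fit. Amotl2 stayed lower in allografts of both media in all 23 alternatives (log2 −2.13 to −1.68 for CRC and −2.99 to −1.91 for EpiC), as did Cyr61 in EpiC allografts (−3.49 to −2.32). The number of members called between media in cultures was 1 without genotype in the model, and 0 to 1 when single libraries were left out. In the latter the 1 was Cyr61 without CRC or EpiC culture 3, where its levels in the media lay closest. Between CRC allografts and CRC cultures it was 2 without both CRC allografts 1 and 11C, and 1 to 2 with 1 library left out, and for the difference of the allograft effects 0 to 1. The cause was not tested. CRC allografts 1 and 11C are the lowest of their group for Wwtr1 and were chosen for high Yap1. The count of 2 without allograft 1 or without both follows from leaving these out. So do the Yap1 values given below without both. Genes called among all ran from 159 to 3557 for media in cultures, 3266 to 5815 for CRC allografts, 997 to 2200 for EpiC allografts, 760 to 2243 for their difference, 0 to 47 for media in allografts, 0 to 26 for Brca1, 0 to 284 for CRC and for EpiC cultures against cancers, and 0 to 12 for media in cultures of cancers. Fitted with the cancer as a replicate block, 0 members were called in all 3 comparisons, and the block changed no other call of a member. Log2 differences that changed sign with 1 library left out had these ranges. For medium in cultures, they were Ctgf −1.76 to 0.053, Ankrd1 −2.92 to 0.36, Axl −0.17 to 0.32, Amotl2 −0.061 to 0.20. For medium in allografts, they were Axl −0.082 to 0.24, Tead1 −0.73 to 0.48, Lats2 −0.34 to 0.33, Yap1 −0.69 to 1.43, Ctgf −0.44 to 1.27. For CRC allografts against cultures, they were Ankrd1 −1.04 to 1.33, Ctgf −1.27 to 0.78, Cyr61 −0.54 to 0.16, Axl −0.059 to 0.41, Lats2 −0.17 to 0.13, Tead1 −0.39 to 0.0044, Yap1 −0.38 to 0.72. For EpiC allografts against cultures, they were Wwtr1 −0.088 to 0.097, Ankrd1 −1.08 to 0.49, Tead1 −0.26 to 0.73, Axl −0.12 to 0.35. For the difference of these effects, they were Ankrd1 −0.69 to 1.81, Axl −0.18 to 0.34, Yap1 −0.18 to 1.41. For Brca1hom against Brca1het, they were Amotl2 −0.077 to 0.91, Lats2 −0.19 to 0.17, Yap1 −1.17 to 1.56, Wwtr1 −0.92 to 0.015. For CRC cultures against cancers, they were Ctgf −1.15 to 0.72, Ankrd1 −2.38 to 3.64, Wwtr1 −0.55 to 0.57, Lats2 −0.46 to 0.41, Tead1 −1.21 to 0.50, Yap1 −1.07 to 0.74. For EpiC cultures against cancers, they were Ankrd1 −1.33 to 4.69, Ctgf −0.43 to 1.44. For medium in cultures of cancers, they were Cyr61 −1.30 to 0.056, Yap1 −0.81 to 1.00, Tead1 −1.70 to 0.009, Wwtr1 −0.94 to 0.17. Other settings that turned a sign follow. Without genotype in the model, values were Tead1 0.18 (medium in allografts), Wwtr1 0.085 (EpiC allografts against cultures). In Brca1het allografts alone, values were Axl −0.082 (medium in allografts), Tead1 0.48 (medium in allografts). Without both CRC allografts 1 and 11C, values were Lats2 −0.034 (medium in allografts), Yap1 −0.69 (medium in allografts), Yap1 −0.78 (CRC allografts against cultures), Wwtr1 0.026 (EpiC allografts against cultures), Yap1 −0.40 (the difference of these effects). For medium in allografts these are the values without 11C alone, since no Brca1hom allograft bears on that estimate. Under median-ratio rescaling, values were Lats2 0.011 (CRC allografts against cultures), Wwtr1 −0.039 (CRC cultures against cancers). With CRC allografts 10B and 10C as 1 sample, values were Lats2 0.0073 (CRC allografts against cultures), Wwtr1 0.047 (EpiC allografts against cultures), Amotl2 −0.016 (Brca1hom against Brca1het), Lats2 −0.041 (Brca1hom against Brca1het). Where leaving out a library left a group with 1 sample, that sample was assumed to vary like the others. FPKM carries no read depth, so its limit on low values is unknown.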
